A study of Homo sapiens with 4 samples.

Results

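The insulin-like growth factor (IGF) system was followed through hematopoietic differentiation of a human induced pluripotent stem cell line, as the RNA level of 10 genes. These were the ligands IGF1 and IGF2, the receptors IGF1R and IGF2R, and the binding proteins IGFBP1 to IGFBP6. They were taken by symbol from an expression table of 58274 gene identifiers, and all 10 were found, each on 1 row. The values were FPKM, fragments per kilobase of transcript scaled to the number of mapped fragments, a unit that allows levels of different genes to be set side by side.

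The study compared 4 populations of BC1 cells, an established human iPSC line, to follow gene expression from pluripotency to blood. The first was undifferentiated BC1 cells. The others were collected during stepwise differentiation with activin A and BMP4 for 2 days, followed by VEGF and bFGF. Mesoderm cells sorted for APLNR came from day 2, hemogenic endothelial progenitors (HEPs) sorted for CD31 and CD34 from day 5, and hematopoietic progenitors (HPCs) sorted for CD43 from day 8. A single library represents each population, all from 1 iPSC line, so no difference below has a replicate check and no test between populations was possible. The labels name no genetic modification of the line.

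IGF1 and IGF2 are secreted peptides that promote growth and survival of cells through IGF1R, a receptor tyrosine kinase whose substrates feed the PI3 kinase and AKT pathway. IGF2R carries IGF2 to lysosomes for breakdown. IGF binding proteins hold the ligands outside the cell, which can block or prolong their action, and proteases such as PAPPA free the ligands by cutting them. IGF2 is an imprinted gene that is highly active in the fetus, and IGF signals act on endothelial and blood cells of the embryo.

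The sums of stage markers were each highest in the population of their label. These marker genes were added after their values were seen and include genes used for sorting, such as APLNR and CD34. The summed level of 6 pluripotency markers was highest in BC1 at 3033 FPKM, that of 6 mesoderm markers was highest in APLNR+ cells at 2218 FPKM, that of 6 endothelial markers was highest in CD31+CD34+ cells at 1298 FPKM, and that of 6 hematopoietic markers was highest in CD43+ cells at 6724 FPKM. Single genes made up large parts of these sums: POU5F1 was at 1997 FPKM in BC1 and APLNR at 1073 in APLNR+ cells. KDR was at 569 FPKM in CD31+CD34+ cells and HBE1 at 5271 in CD43+ cells. The endothelial sum in CD43+ cells was 299 FPKM, and the hematopoietic sum in CD31+CD34+ cells was 161 FPKM. The part of cells from neighbouring stages in these values was not tested. The depth read from the steps between low values lay between 19500000 and 23400000 mapped fragments. Mitochondrial genes took from 5.80% to 8.16% of the total FPKM, and globin genes took 1.80% of it in CD43+ cells. In RNA from whole populations, fewer cells that express a gene cannot be told apart from less RNA of it per cell.

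Changes were measured between consecutive populations on the log2(FPKM + 1) scale, which understates fold changes of genes with low values. A gene was said to rise or fall where this difference was at least 1, a fixed size and not a test. Fold changes are ratios of FPKM, given with exact Clopper-Pearson 95% intervals from the approximate number of fragments behind each value. The intervals reflect the sampling of fragments alone, and differences between cultures or between sorts are outside them.

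The sequences before the transcription starts of IGFBP2, IGFBP4 and IGFBP5 are shown first, because these 3 genes rose together into CD31+CD34+ cells and fell together into CD43+ cells. RefSeq sequence on GRCh38.p14 was matched to 8 of the 10 genes, and IGF2 and IGFBP1 had no entry. Each run holds the 250 bases before the RefSeq start closest to the start of the longest coding transcript, on the strand of the gene and from 5′ to 3′. The window of IGFBP2 is chr2:216633170-216633419 on the plus strand, that of IGFBP4 is chr17:40443200-40443449 on the plus strand, and that of IGFBP5 is chr2:216695550-216695799 on the minus strand. Capitals mark matches to 5 motifs searched on both strands.
IGFBP2: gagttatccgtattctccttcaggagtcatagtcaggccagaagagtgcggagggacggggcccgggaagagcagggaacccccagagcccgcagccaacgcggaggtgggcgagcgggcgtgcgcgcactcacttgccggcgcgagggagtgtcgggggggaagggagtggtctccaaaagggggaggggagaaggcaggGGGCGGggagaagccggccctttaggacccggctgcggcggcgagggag
IGFBP4: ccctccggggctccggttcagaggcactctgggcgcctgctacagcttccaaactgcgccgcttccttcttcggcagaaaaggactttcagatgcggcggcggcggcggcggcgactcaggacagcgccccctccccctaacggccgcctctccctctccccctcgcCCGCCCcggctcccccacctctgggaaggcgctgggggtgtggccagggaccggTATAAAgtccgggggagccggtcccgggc
IGFBP5: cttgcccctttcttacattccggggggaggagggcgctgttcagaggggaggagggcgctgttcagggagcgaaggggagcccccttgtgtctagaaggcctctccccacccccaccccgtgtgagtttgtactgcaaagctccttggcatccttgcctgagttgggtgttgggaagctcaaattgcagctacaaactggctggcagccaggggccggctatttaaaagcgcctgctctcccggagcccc

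The letters searched for a TATA box were TATAAA, and those for a GC box, the site of SP1 and its relatives, were GGGCGG. The letters for an E-box were CACGTG, and those for the site of GATA factors of blood and endothelium were AGATAA. The site of ETS factors, which act in the same lineages, was searched as CCGGAAG. The IGFBP2 window held 1 GC box, from -49 to -44 counted from the start. In the IGFBP4 window a TATA box lay from -29 to -24, and a GC box lay on the opposite strand from -83 to -78. The IGFBP5 window held none of these letters. A TATA box was found in 10.7% and a GC box in 42.6% of 35116 RefSeq promoter windows of the same length, so the matches are no feature particular to these genes. The GATA motif and the ETS motif, in 9.17% and 8.52% of all windows, matched none of the 3. The windows also differed in composition. G and C made up 69.2% of the IGFBP2 window, 71.6% of the IGFBP4 window and 61.2% of the IGFBP5 window, against a median of 58% over all windows, and the numbers of CpG dinucleotides were 22, 24 and 8.

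The ligands were expressed very differently. IGF1 (chromosome 12, 102395867 to 102480645, GRCh38) was listed at 0 in BC1 and in CD31+CD34+ cells, at 0.0558 FPKM in APLNR+ cells and at 0.00795 FPKM in CD43+ cells. No library reached 3 fragments at the median transcript length of this gene, so its RNA was not detectable at this depth and no fold change was computed. With the longest annotated transcript, the value in APLNR+ cells would stand for 8.43 fragments. IGF1 was the only one of the 10 genes below 1 FPKM in every library.

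IGF2 (chromosome 11, 2129112 to 2141238) was measured at 3.04 FPKM in BC1 and 10.6 in APLNR+ cells, then 35.9 in CD31+CD34+ and 40.3 in CD43+ cells. The level was higher in each population than in the one before. IGF2 rose 3.50-fold (2.95 to 4.18) from BC1 to APLNR+ cells and 3.37-fold (3.09 to 3.69) from APLNR+ to CD31+CD34+ cells, with log2 changes of 1.53 and 1.66. The last step was small, 1.12-fold (1.06 to 1.19), with a log2 change of 0.16. Over the whole course the level of this fetal growth factor gained 3.35 on the log2 scale, a ratio of 13.3 (11.3 to 15.6). Its rank among genes, counted from the highest, moved from 11153 in BC1 to 2433 in CD43+ cells. IGF2 was the only one of the 10 genes that rose at both of the first transitions, although with a pseudocount of 0.1 IGFBP5 did so too (1.15 at the first).

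Other transcripts overlap the IGF2 locus. The readthrough gene INS-IGF2, which shares exons with IGF2, was listed at effectively 0 in all 4 libraries, and adding it to IGF2 changed no value. The antisense gene IGF2-AS was listed at 0 in BC1, at 0.184 FPKM in APLNR+ cells, then at 1.54 in CD31+CD34+ and 0.0279 in CD43+ cells. It rose by a log2 change of 1.10 and then fell by 1.30. The library kit does not mark strand, so reads of IGF2 and IGF2-AS cannot be told apart where they overlap. IGF2-AS was far below IGF2 in all 4 libraries. H19, the maternally expressed RNA that lies beside IGF2 and shares its imprinting control region, was at 0.569, 0.712, 2.24 and 1.12 FPKM in the order of differentiation, and none of its steps reached a log2 difference of 1.

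The receptors moved little. IGF1R (chromosome 15, 98648971 to 98964530) was at 20.2 FPKM in BC1 and 22.0 in APLNR+ cells, then 14.2 in CD31+CD34+ and 18.7 in CD43+ cells. The lowest level was in CD31+CD34+ cells, a log2 difference of -0.60 from APLNR+ cells and a ratio of 1.55 (1.49 to 1.62). The following log2 difference was 0.37, a ratio of 1.32 (1.26 to 1.37). All neighbours in the order of the 4 levels were separated by more than counting error, although none of the steps reached a log2 difference of 1.

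IGF2R (chromosome 6, 159969099 to 160113507) was at 13.9, 17.0, 13.4 and 14.4 FPKM in BC1, APLNR+, CD31+CD34+ and CD43+ cells, with log2 differences of 0.27, -0.32 and 0.09 from step to step. In the order of levels below APLNR+ cells, CD43+ over BC1 gave a ratio of 1.03 (0.977 to 1.09) and BC1 over CD31+CD34+ gave 1.04 (0.980 to 1.09), both within counting error. CD43+ over CD31+CD34+ gave 1.07 (1.01 to 1.13), but this last step was -0.02 on the log2 scale with libraries scaled to the same total. AIRN, the antisense RNA within IGF2R, was at 0.0247 FPKM in BC1 and listed at 0 in the other libraries. The level of IGF1R was 1.45 times that of IGF2R in BC1 and 1.06 times in CD31+CD34+ cells. Against INSR, the insulin receptor with which IGF1R can pair, it was 4.08 times as high in BC1 and 9.76 times in CD43+ cells. INSR itself was at 4.94, 5.05, 3.16 and 1.91 FPKM in the order of differentiation, with no step of a log2 difference of 1.

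**Figure D1:**
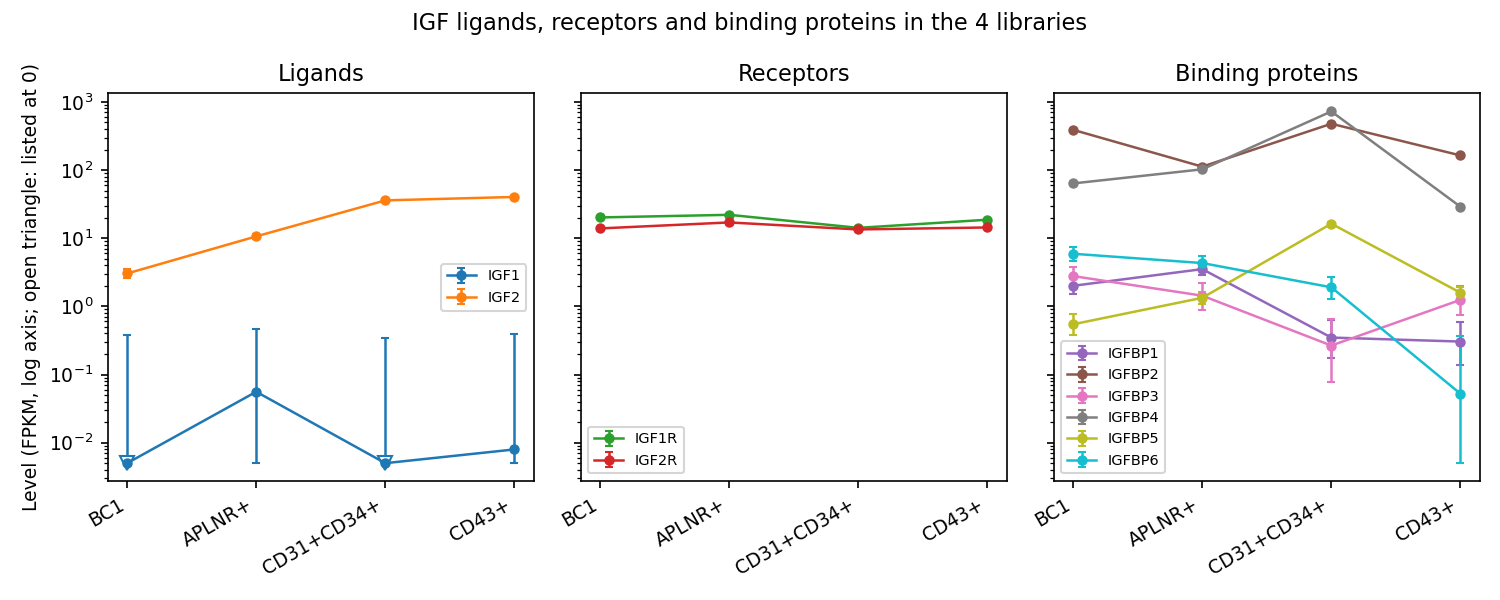
Level of each of the 10 genes in FPKM (log axis) in the 4 libraries, in panels for ligands, receptors and binding proteins, with bars for exact 95% counting intervals and open triangles for values listed at 0. IGF2 climbed from 3.04 to 40.3 FPKM and both receptors stayed between 13.4 and 22.0 FPKM, while IGFBP2 and IGFBP4 lay above the other binding proteins in all 4 libraries and IGFBP4 and IGFBP5 were highest in CD31+CD34+ cells.

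The binding proteins carried the widest changes. Of the 6 genes, 0 rose and 1 fell at the step from BC1 to APLNR+ cells, 3 rose and 1 fell at that to CD31+CD34+ cells, and 0 rose and 4 fell at that to CD43+ cells. Over all 17137 genes that reached 1 FPKM in any library, 9.15% rose and 9.32% fell at the first step, 13.0% rose and 11.4% fell at the second, and 7.63% rose and 13.5% fell at the last. The median log2 changes of the 6 were 0.11, 0.60 and -1.50, beside medians over all genes kept of 0.00, 0.01 and -0.08.

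IGFBP2 (chromosome 2, 216632828 to 216664436), a binding protein of fetal tissues and stem cells that prefers IGF2, was at 389 FPKM in BC1 and 112 in APLNR+ cells, then 478 in CD31+CD34+ and 164 in CD43+ cells. The level alternated at each step, falling, rising and falling again. The fall to APLNR+ cells was 3.47-fold (3.26 to 3.70), the rise to CD31+CD34+ cells 4.26-fold (4.01 to 4.53) and the last fall 2.92-fold (2.76 to 3.07), with log2 changes of -1.79, 2.08 and -1.54. IGFBP2 was the only one of the 10 genes that changed at all 3 transitions. It ranked 200 among genes in BC1 and 859 in APLNR+ cells, then 163 in CD31+CD34+ and 535 in CD43+ cells.

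IGFBP4 (chromosome 17, 40443461 to 40457731), a substrate of PAPPA that mostly restrains IGF action, was at 63.6, 102, 725 and 28.99 FPKM in BC1, APLNR+, CD31+CD34+ and CD43+ cells. It was by far highest in CD31+CD34+ cells, where it ranked 117 among genes. The rise from APLNR+ cells was 7.07-fold (6.85 to 7.30), a log2 change of 2.81. The fall to CD43+ cells was 24.99-fold (23.6 to 26.5), a change of -4.60 in log2(FPKM + 1) and on that scale the largest of the 10 genes at any transition, although the FPKM ratio of IGFBP6 at this step was larger and rests on about 1 fragment. CD43+ cells had the lowest level of the 4, 2.19 times (2.05 to 2.35) below that of BC1. The rank there was 3352.

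IGFBP5 (chromosome 2, 216672105 to 216695525), a binding protein that attaches to extracellular matrix, was at 0.546 FPKM in BC1 and 1.33 in APLNR+ cells, then 16.3 in CD31+CD34+ and 1.59 in CD43+ cells. It peaked in the same population as IGFBP4, at a level that was far lower. It rose 12.2-fold (9.88 to 15.3) into CD31+CD34+ cells and fell 10.3-fold (8.45 to 12.6) after it, with log2 changes of 2.89 and -2.74. The levels in CD43+ and APLNR+ cells did not differ beyond counting error, at a ratio of 1.19 (0.891 to 1.59). IGFBP5 and IGFBP2 lie 7669 bases apart on opposite strands of chromosome 2.

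IGFBP1, IGFBP3 and IGFBP6 were low and were not highest in CD31+CD34+ cells. IGFBP1 (chromosome 7, 45888357 to 45893668), which is made in large amounts by liver and decidua, was at 2.00 FPKM in BC1 and 3.52 in APLNR+ cells, then 0.348 in CD31+CD34+ and 0.304 in CD43+ cells. It fell 10.1-fold (5.38 to 21.0) from APLNR+ to CD31+CD34+ cells, a log2 change of -1.74, and its last values lay within counting error of each other at a ratio of 1.14 (0.424 to 3.20). The summed level of 7 endoderm and hepatic markers was also highest in APLNR+ cells, at 590 FPKM, against 243 in BC1, 103 in CD31+CD34+ and 80.3 in CD43+ cells, and 6, 5, 5 and 4 of the 7 were at 1 FPKM or more in the same order of populations. All 7 were highest in APLNR+ cells, although FOXA2 was within counting error of its level in BC1, at a ratio of 1.13 (0.618 to 2.08). In APLNR+ cells APOA2 was at 470 FPKM, ALB at 56.3, APOA1 at 23.6, SOX17 at 16.6, AFP at 14.7, TTR at 8.46 and FOXA2 at 0.588. In BC1 these genes were at 193, 23.5, 11.6, 0.171, 11.5, 3.39 and 0.522 FPKM in the same order. The part of endoderm or hepatic cells in the level of IGFBP1 was not tested.

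IGFBP3 (chromosome 7, 45912245 to 45921874), the main carrier of IGFs in blood plasma, was at 2.78 FPKM in BC1 and 1.43 in APLNR+ cells, then 0.266 in CD31+CD34+ and 1.24 in CD43+ cells. The lowest level was in CD31+CD34+ cells, where IGFBP4 and IGFBP5 were highest. The log2 differences from step to step were -0.63, -0.94 and 0.83, so none reached 1, while with a pseudocount of 0.1 the later ones became -2.07 and 1.88. As ratios they were 1.94 (1.12 to 3.44), 5.39 (1.88 to 20.3) and 4.68 (1.59 to 17.9), with wide intervals because about 4.31 fragments stood behind the value in CD31+CD34+ cells. IGFBP3 and IGFBP1 lie 18577 bases apart on opposite strands of chromosome 7.

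IGFBP6 (chromosome 12, 53097436 to 53102345), which binds IGF2 with marked preference over IGF1, was at 5.91, 4.32, 1.90 and 0.0523 FPKM in BC1, APLNR+, CD31+CD34+ and CD43+ cells. The level was lower in each population than in the one before, the opposite order to IGF2. The first values did not differ beyond counting error, at a ratio of 1.37 (0.971 to 1.94). The fall from CD31+CD34+ to CD43+ cells was a log2 change of -1.46. About 1 fragment or less stood behind the value in CD43+ cells, 0.739 at the median transcript length. The ratio of the FPKM values, 36.4, is therefore poorly determined, with an interval from 4.88 to 4572 at that length and from 6.17 to 1472 with the longest transcript. The sum of the pluripotency markers was also lower in each population than in the one before, at 3033, 895, 148 and 116 FPKM.

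Read together, the summed level of the 6 binding proteins was 464 FPKM (451 to 476) in BC1 and 225 (218 to 232) in APLNR+ cells, then 1221 (1207 to 1236) in CD31+CD34+ and 196 (188 to 204) in CD43+ cells. The intervals of the sum are normal approximations from the counting of fragments, not exact ones. The sum dropped 2.06-fold, climbed 5.42-fold and dropped 6.23-fold. IGFBP2 and IGFBP4 held between 95.3% and 98.5% of the sum in the 4 libraries, and the other 4 genes shared the rest. IGFBP2 held 83.9% in BC1 and 49.8% in APLNR+ cells, then 39.1% in CD31+CD34+ and 83.6% in CD43+ cells. IGFBP4 held 13.7%, 45.5%, 59.3% and 14.8% in the same order, so that the level of IGFBP4 was 0.164 times that of IGFBP2 in BC1 and 1.52 times in CD31+CD34+ cells. CD43+ cells returned to nearly the same division as BC1.

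**Figure D2:**
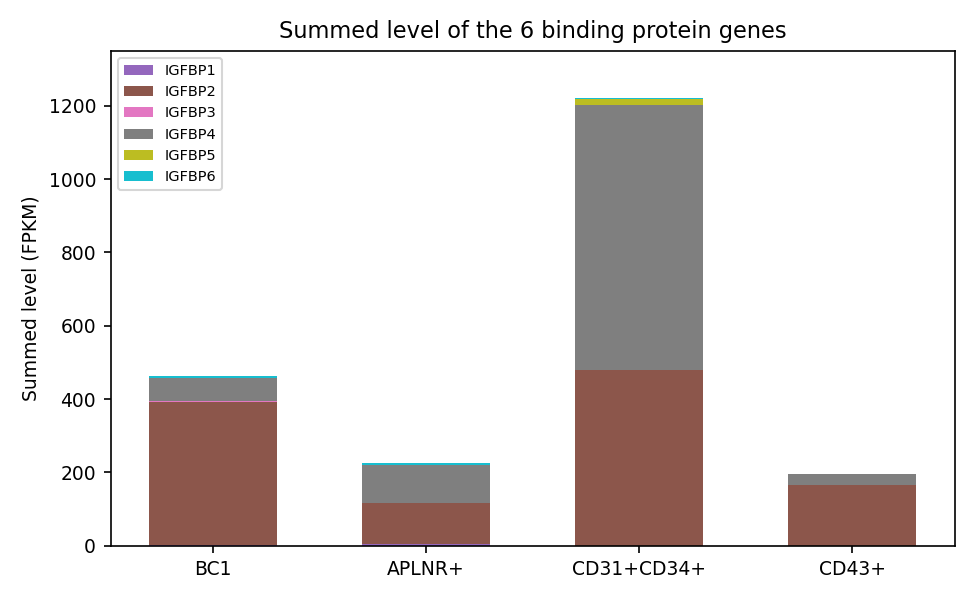
Summed level of the 6 binding protein genes in FPKM in each of the 4 libraries, from 0, with each bar divided by gene. The bar of CD31+CD34+ cells reaches 1221 FPKM against 464, 225 and 196 in BC1, APLNR+ and CD43+ cells, and the IGFBP4 share grows from 13.7% in BC1 to 59.3% in CD31+CD34+ cells before it returns to 14.8%.

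Relative to IGF2, the summed binding protein level was lower in CD43+ cells than in BC1, but it did not fall at every step. The sum was 153 FPKM per FPKM of IGF2 in BC1 and 21.2 in APLNR+ cells, then 34.0 in CD31+CD34+ and 4.87 in CD43+ cells. Between the first and the last population this ratio was 31.4-fold lower, with the sum 2.37-fold lower and IGF2 13.3-fold higher. It is a ratio of RNA levels and says nothing of secreted protein, and other cells of the culture, which were not measured, may add to either side.

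The summed levels of endothelial and of mesenchymal stromal markers were highest in CD31+CD34+ cells, where IGFBP4 and IGFBP5 peaked. This did not hold for every single marker. Among the endothelial markers PECAM1 was higher in CD43+ cells, at 126 FPKM against 93.1 in CD31+CD34+ cells. The other endothelial markers were highest in CD31+CD34+ cells. The summed level of the 6 endothelial markers was 48.8, 74.7, 1298 and 299 FPKM in BC1, APLNR+, CD31+CD34+ and CD43+ cells. That of 8 mesenchymal stromal markers, genes of cells that also make these binding proteins, was 55.4, 110, 412 and 53.2 FPKM, with 4, 4, 5 and 5 of the 8 at 1 FPKM or more. In CD31+CD34+ cells COL1A1 and COL1A2 made up most of the stromal sum, at 184 and 207 FPKM. COL3A1 was also highest there, at 8.94 FPKM, and PDGFRA was at 4.96 FPKM after 14.3 in APLNR+ cells. PDGFRB was at 5.67, 5.50, 6.69 and 2.56 FPKM in the order of differentiation. Its level in CD31+CD34+ cells was within counting error of that in APLNR+ cells at the median transcript length, at a ratio of 1.22 (0.871 to 1.70). DCN and POSTN were listed at 0 in CD31+CD34+ cells, and LUM was at 0.187 FPKM. The part of stromal cells in the levels of IGFBP4 and IGFBP5 was not tested.

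Counted over the 10 genes, 1 rose and 1 fell from BC1 to APLNR+ cells, namely IGF2 and IGFBP2. Of all genes kept, 9.15% rose and 9.32% fell at this step. From APLNR+ to CD31+CD34+ cells 4 rose, IGF2, IGFBP2, IGFBP4 and IGFBP5, and IGFBP1 fell, where 13.0% of all genes rose and 11.4% fell. Into CD43+ cells 0 rose and 4 fell, IGFBP2, IGFBP4, IGFBP5 and IGFBP6, where 7.63% of all genes rose and 13.5% fell. The median log2 changes of the 10 genes were 0.20, -0.20 and -0.02 at the 3 steps. Over the 7 that reached 5 FPKM the second median turned to 1.66 and the last was -1.46. Over all genes under that filter these medians were 0.002 and -0.10. A gene passes by its highest library. IGFBP5 passed through CD31+CD34+ cells alone and IGFBP6 through BC1 alone, so the selection itself can shift these medians. The last median is the change of IGFBP6 itself, which rests on about 1 fragment in CD43+ cells. Of the 10, 9 passed the filter of 1 FPKM, and 4, IGF1, IGF1R, IGF2R and IGFBP3, had no step of at least 1. IGF1, below 1 FPKM in every library, could have no such step on this scale. With 10 genes and 1 library a population, these counts describe the genes and do not show that the group stands apart from others.

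**Figure D3:**
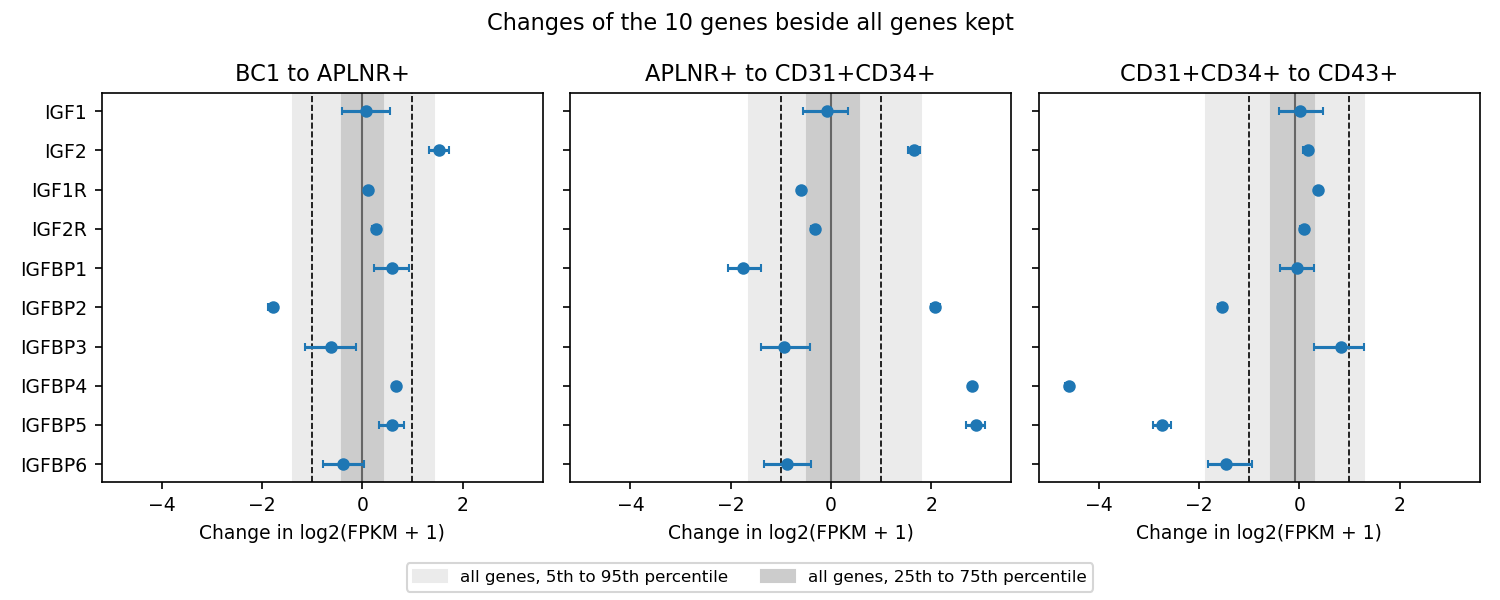
Change of each of the 10 genes in log2(FPKM + 1) at the 3 transitions, with dashed lines at -1 and 1. Bars are approximate 95% counting intervals, combined from the exact intervals of the levels compared. Grey bands are the 5th to 95th and 25th to 75th percentiles of all 17137 genes kept. IGFBP2, IGFBP4 and IGFBP5 lie right of the wide band from APLNR+ to CD31+CD34+ cells at 2.08, 2.81 and 2.89, and IGFBP4 lies farthest left at the last transition at -4.60.

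A list of 56 further genes of the pathway was examined, of which 48 passed the filter. At the step to APLNR+ cells 3 of them rose and 2 fell, at that to CD31+CD34+ cells 9 rose and 7 fell, and at that to CD43+ cells 4 rose and 6 fell. The corresponding shares of all genes, which also apply to the smaller lists that follow, were 9.15% and 9.32%, then 13.0% and 11.4%, then 7.63% and 13.5%. The median log2 changes of the 56 were 0.08, 0.00 and -0.15. At all 3 steps, 32 of the 56 stayed within a log2 difference of 1. The genes that did not pass the filter are among them, since a gene below 1 FPKM in every library cannot differ by 1 on this scale. The counts are out of all 56, whereas the shares are over genes kept. The share of all genes without such a step was not computed.

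Among relatives and regulators of the binding proteins, IGFBP7, which binds IGFs weakly, was at 1.71, 3.23, 3.51 and 4.86 FPKM in the order of differentiation. IGFBPL1, a related secreted protein, fell from 16.1 FPKM in APLNR+ to 1.51 in CD31+CD34+ cells, a log2 change of -2.77. PAPPA, the protease that cuts IGFBP4, was at 0.0477, 0.0434, 0.0843 and 0.976 FPKM, below 1 FPKM in all 4 libraries. STC2, a secreted inhibitor of PAPPA, fell from 12.3 to 0.546 FPKM at the step where IGFBP4 rose, a log2 change of -3.11. The lower value stood for about 4.30 fragments at the median transcript length. At the next step STC2 rose to 3.94 FPKM, a log2 change of 1.68. IGFALS, which holds IGF complexes in plasma, reached at most 0.424 FPKM. Of the 8 proteases and inhibitors of this list, 2 rose and 2 fell as CD31+CD34+ cells formed, and 2 rose and 2 fell at the next step.

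Inside the cell, the receptor substrates IRS1 and IRS2 moved in the same direction at each step, with changes of at least 1 at different steps. IRS1 was at 10.6, 18.3, 1.32 and 2.18 FPKM in BC1, APLNR+, CD31+CD34+ and CD43+ cells, and its fall of 13.8-fold (12.3 to 15.6) at the middle step was a log2 change of -3.05. IRS2 was at 6.20, 7.73, 3.84 and 8.95 FPKM, and it rose by a log2 change of 1.04 at the last step. In CD31+CD34+ cells both were at their lowest, in the library where IGF1R was lowest as well. Of 11 substrates and adaptors, 2 rose and 1 fell at the middle step. PIK3CB, a catalytic subunit of PI3 kinase, rose from 26.4 FPKM in CD31+CD34+ to 140 in CD43+ cells, a log2 change of 2.37. Among 19 genes from PI3 kinase to mTOR, 2 rose and 0 fell at the first step, 3 rose and 3 fell at the second, and 1 rose and 2 fell at the last.

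The 3 IGF2 mRNA binding proteins, which bind and stabilise IGF2 transcripts among others, had no step of at least 1. IGF2BP3 was at 63.1, 37.8, 24.7 and 22.4 FPKM in the order in which IGF2 went from 3.04 to 40.3. IGF2BP1 stayed between 39.7 and 63.8 FPKM, and IGF2BP2 between 41.3 and 59.7.

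**Figure D4:**
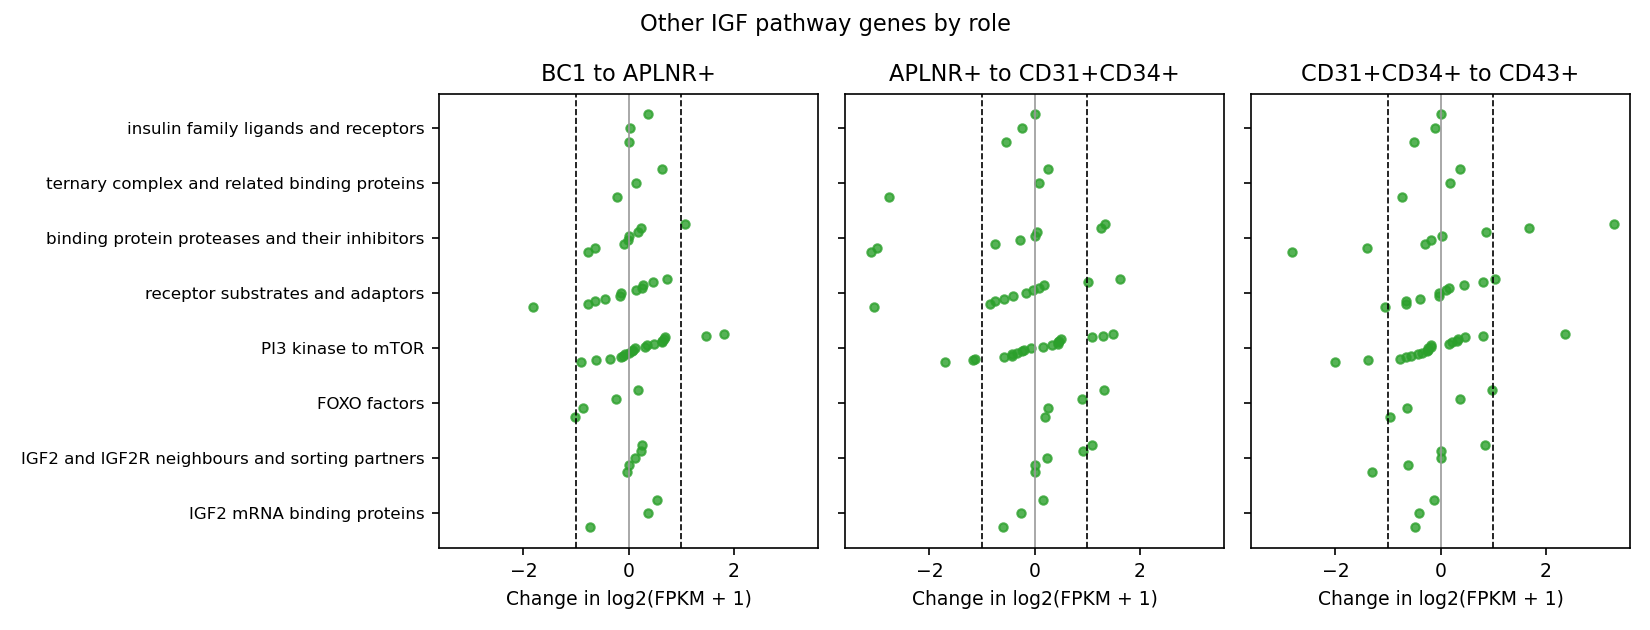
Change in log2(FPKM + 1) of the 56 other pathway genes at the 3 transitions, 1 point a gene, grouped by role, with dashed lines at -1 and 1. Most points lie between the dashed lines, and from APLNR+ to CD31+CD34+ cells the points farthest to the left include STC2 at -3.11, IRS1 at -3.05 and IGFBPL1 at -2.77.

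The genes with the most similar course were sought for the 4 members with the widest range, IGFBP4, IGFBP5, IGF2 and IGFBP6, among 8932 protein-coding genes that reached 10 FPKM. Likeness was the root mean squared difference of the log2(FPKM + 1) values after centring over the 4 libraries. Closest to IGFBP4 were TOX2 (0.212), NOS3 (0.257) and CDH13 (0.279). NOS3, the nitric oxide synthase of endothelium, was at 5.06, 8.16, 93.7 and 2.87 FPKM. Closest to IGFBP5 were CEACAM21 (0.054), FAM198B (0.116) and CLEC14A (0.200), the last a surface protein of endothelial cells that reached 13.7 FPKM in CD31+CD34+ cells and 0.700 or less elsewhere. The course of IGF2 was nearest to GPSM3 (0.095), BCORL1 (0.099) and BTG2 (0.147). That of IGFBP6 was nearest to ARHGEF16 (0.072), NECTIN3 (0.078) and SPINT1 (0.079), the last an inhibitor of serine proteases in epithelia. With 4 libraries many genes share a course, so these names are a description.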

How the data were processed

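BC1 cells and the 3 sorted populations were sequenced as TruSeq RNA libraries (Illumina). The authors deposited 1 table of gene-level FPKM values. The submitters' processing notes name BWA, Bowtie, RSEM and hg19 with no role, whereas the loci in the table follow GRCh38. In GENCODE release 29, 99.5% of the identifiers were found at any version. Of those found at the same version, 99.97% had the same start and end. The program that made the table is not given in the sources used here. Rows of 1 identifier were summed, and genes that reached 1 FPKM in any library were kept (17137). Depth was recovered from FPKM steps of genes with 1 transcript of at least 1000 bases, where from 92.3% to 94.3% of low values fell within 0.1 of a whole number of fragments. Fragments for each gene rested on the median of its coding transcript lengths, which is uncertain where a gene uses transcripts of several lengths. For a transcript of 2000 bases, 1 FPKM stood for 34.0 to 40.2 fragments, no fold was given where the higher value stood for at most 3 fragments, and a value listed at 0 was set to 3 fragments as a floor.

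The 10 genes and all lists were chosen with earlier results of these data known. Besides the 10 genes, the text names listed pathway genes with a log2 change of at least 2 and at least 10 FPKM, a few set by name (INSR, IGFBP7, H19, INS-IGF2, IGF2-AS, AIRN, IGFALS, PAPPA, IRS1 and IRS2), and the 3 genes nearest in course to each of 4 members. The IGF2 mRNA binding proteins, the marker genes and the neighbouring genes named in the text were added after their values were seen. With 1 library per population no test was run. Alternatives were the pseudocount, the size of a change, 3 scalings of the libraries, the filter, the treatment of rows and the sum of IGF2 with INS-IGF2. Scripts were tested on simulated data. Python 3.11.15, pandas 2.3.3, numpy 2.4.6, scipy 1.17.1 and matplotlib 3.10.9 were used.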

Additional observations from a re-analysis of the deposited data

How the results depend on the processing

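With 1 library per population no replicate could be left out. No paired analysis was possible because each population has 1 library and the result comes from no test. Of 201 recomputed changes of single members, 181 stayed within their counting intervals, 20 moved beyond them, and 1 changed sign, the last step of IGF2R (-0.02 with libraries scaled to the same total). With a pseudocount of 0.1, 4 changes crossed 1: IGFBP5 at the first step (1.15), IGFBP3 (-2.07) and IGFBP6 (-1.14) at the second, and IGFBP3 at the last (1.88). The members then counted 2 rising at the first step, 3 falling at the second and 1 rising at the last. Their medians were 0.46 and -0.49 at the first and second steps. The pathway list counted 5 rising and 5 falling at the first step and 11 falling at the last. Over all genes with this pseudocount, 13.6% rose and 15.0% fell at the first step. These shares were 19.2% and 16.7% at the second step and 11.1% and 20.4% at the last. With a difference of at least 2, members counted 0 rising and 0 falling at the first step, 0 falling at the second and 2 falling at the last. Pathway genes counted 0 and 0, then 0 rising and 4 falling, then 2 rising and 2 falling. Over all genes at this size of change, 2.68% rose and 2.29% fell at the first step. These shares were 4.08% and 3.15% at the second step and 2.28% and 4.32% at the last. Keeping genes with at least 5 FPKM left 7 members. Of these, 0 fell at the second step, with a median of 1.66 there and -1.46 at the last, because fewer genes were counted. Of all genes under this filter, 11.9% fell at the second step. At the first step 1 pathway gene fell, beside 8.53% of all genes. Scaling to the same total also left 1 pathway gene falling at the first step, where 9.12% of all genes fell. Under the filter of 5 FPKM, IGFBP5 was kept through its level in CD31+CD34+ cells alone and IGFBP6 through its level in BC1 alone. The summed binding protein level of CD31+CD34+ cells was 1264 FPKM with the same total, 1177 with median-of-ratios size factors and 1243 with the same total without mitochondrial and globin genes, and that of CD43+ cells was 187 with the same total. Depth limits IGF1, IGFBP3 in CD31+CD34+ cells and IGFBP6 in CD43+ cells, where few fragments stand behind a value.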

Other observations

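The genes beside the binding proteins were examined after their values were seen. TNS2, which codes for a protein of focal adhesions, is on the same strand as IGFBP6 and 33064 bases away. It was at 7.49 FPKM in BC1 and 8.71 in APLNR+ cells, then 34.8 in CD31+CD34+ and 2.40 in CD43+ cells, a peak that IGFBP6 did not have, with log2 changes of 1.88 and -3.39 at the last steps. TOP2A, a DNA topoisomerase of dividing cells that lies 25511 bases from IGFBP4, was at 62.9, 50.6, 89.9 and 37.8 FPKM in the same order. RARA, a retinoic acid receptor within 100 kb of IGFBP4, was at 8.99, 15.7, 29.4 and 19.1 FPKM. All 3 were highest in CD31+CD34+ cells, and the log2 rise of IGFBP4 into these cells (2.81) was larger than those of TOP2A (0.82) and RARA (0.86). Not all neighbours had this peak. TNS4, 18097 bases from IGFBP4, went from 1.71 FPKM in APLNR+ to 0.0112 in CD31+CD34+ cells, while GJD3, within 100 kb, rose by 1.33 to 4.27 FPKM. RPL37A, a ribosomal protein gene 53648 bases from IGFBP2, was at 2970, 2484, 2188 and 2852 FPKM and had no step of at least 1.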
